A study of Mus musculus with 4 samples.

Results

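The genes described here are the TNF superfamily ligands and receptors in CD8αβ+ IELs, which are CD8 T cells that live between the epithelial cells of the small intestine, set against CD8αβ+ SPLs, the CD8 T cells of the spleen. Members were taken by name from the arrays' annotation, without regard to their values: every probe that is not a control and whose gene name starts with Tnfsf or Tnfrsf, or is Cd27, Cd40, Cd40lg, Cd70, Fas, Fasl or Ltbr. This gave 53 probes of 37 genes among the 41174 probes and 27376 gene names on the array, namely 13 ligands and 24 receptors. Tnf, Lta and Ltb belong to the same family but have names outside this rule, and they are given with the pathway genes. Testing required a signal well above background on both arrays of at least 1 group, and this held for 42 member probes of 29 genes, among 27937 probes of 18478 genes in all.

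The ligands of this family are mostly membrane proteins made as trimers, and they signal by clustering their receptors on a neighbouring cell. Receptors with a death domain in the cytoplasmic tail can start caspase-driven cell death, while the others bind TRAF adaptors and drive NF-kappaB and MAP kinase signalling. In CD8 T cells the family is known for killing of target cells through Fas ligand and TRAIL, and for costimulation through CD27, 4-1BB, OX40, GITR and HVEM.

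RNA came from sorted cells of male wild-type mice aged 8 to 12 weeks, with 2 samples of CD8αβ+ IELs from the epithelium of the small intestine and 2 samples of CD8αβ+ SPLs from the spleen, 1 array for each sample. Cells were gated as positive for CD45, CD3, CD8α, CD8β and TCRβ. The labels give neither group a transgene or a treatment. The study describes each microarray sample as sorted from several pooled mice, and the labels do not say whether the 2 samples of a group came from separate pools, so p-values measure the spread between these samples, which may be technical. IEL replicate 1 and SPL replicate 2 shared slide 1, and IEL replicate 2 and SPL replicate 1 shared slide 2, so each slide gives 1 comparison of its own. Levels are log2 processed intensities minus the 75th percentile of the same array, so that 0 is that percentile, and differences are IEL minus SPL.

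The 2 slides did not show differences of like size. Over 27912 probes the arrays of slide 2 correlated with r = 0.992 although they hold different groups, against 0.946 for the IEL replicates, 0.986 for the SPL replicates and 0.911 for the arrays of slide 1. IEL replicate 2 therefore lay close to the spleen samples, and slide values are given beside the main differences. Marker lists of cell types moved with the arrays as well. The 10 CD8 T cell markers were well above background on all 4 arrays, with a summed level (linear, in units of the array's 75th percentile) between 755 and 862. The summed level of 11 markers of small intestinal epithelium was 35.2 and 8.41 in the IEL samples and 4.50 and 2.38 in the SPL samples (replicates 1 and 2 in each case). All 11 were higher in IELs. The list of 8 B cell markers summed to 3.64 in IEL replicate 1, against 20.9 to 27.5 on the other 3 arrays, and Ms4a1, which encodes the B cell antigen CD20, was not well above background in IEL replicate 1. Neutrophil markers summed to 0.0843 in IEL replicate 1, against 35.5 to 49.6 on the others, and erythroid markers to 1.06, against 74.3 to 115. The 8 markers of macrophages and dendritic cells summed to 9.76 and 9.83 in the IELs and to 10.2 and 4.84 in the SPLs, but this sum was carried by Itgax, which encodes the integrin CD11c and stood highest in IEL replicate 1. The other 7 summed to 1.08 in IEL replicate 1 and to 3.62 to 7.51 on the other 3 arrays, and 6 of the 8 had a lower mean in IELs. Those 5 markers that stand for endothelium and stroma summed to 0.226 in IEL replicate 1 and to 0.895 to 1.15 on the others, mostly through Pecam1, without which the sums were 0.0774 to 0.116. The 3 markers of CD4 T cells summed to 0.278 to 0.581. The part of such cells in the differences of family members was not tested, and in bulk RNA fewer cells of a type and less RNA per cell cannot be told apart.

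**Figure D1:**
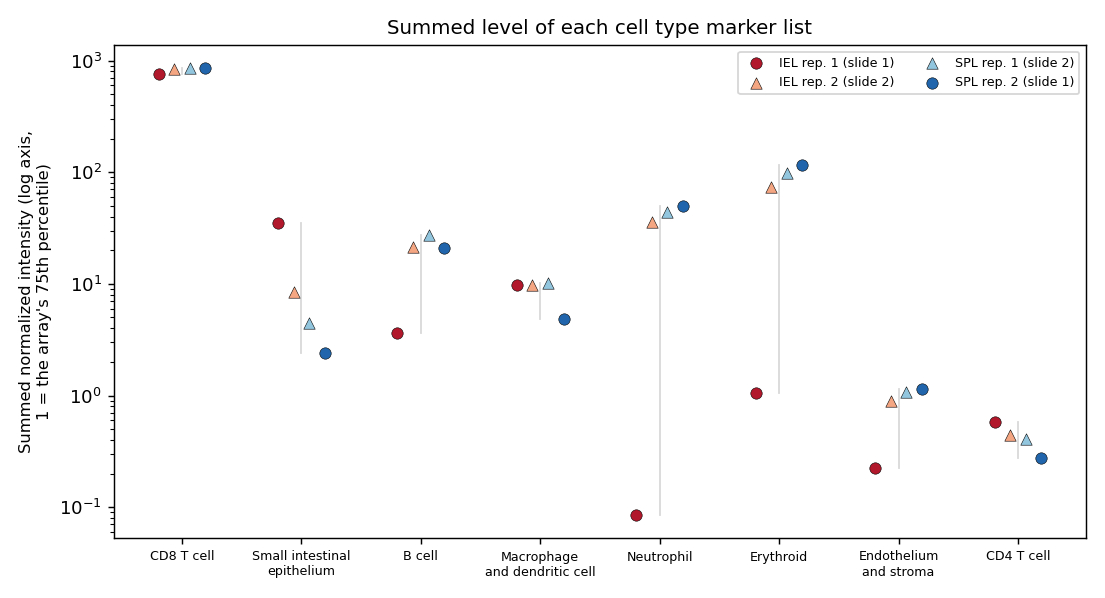
Summed level of each cell type marker list in the 4 samples (vertical log axis, linear intensities in units of each array's 75th percentile, so that 1 equals that percentile); each point is 1 array, red and orange for IELs, blue for SPLs, with circles for slide 1 and triangles for slide 2. CD8 T cell markers lie between 755 and 862 in all samples, while B cell, neutrophil and erythroid markers are low in IEL replicate 1 alone.

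Across the family, few genes stood high in CD8αβ+ IELs on both slides. By the brightest probe of each gene, Fasl, Tnfsf13b and Tnfrsf1b were at least 2-fold higher in IELs on both slides. The second probes of Tnfsf13b and Tnfrsf1b were not, with -0.04 and 0.60 log2 units on slide 2. Tnfsf10 was 2.61 log2 units higher on slide 1 and 0.86 on slide 2. The lowest differences were those of Tnfrsf25, Tnfrsf13c and Tnfsf8, whose low level was seen in IEL replicate 1 and not in IEL replicate 2. The costimulatory receptors Tnfrsf18, Tnfrsf14 and Tnfrsf4 had nearly the same level in all 4 samples.

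No member passed a Benjamini-Hochberg adjusted p of 0.05 in limma in either direction. The counts were 0 higher and 0 lower among the 29 genes, with a background of 0% in each direction, since no gene of the array passed. The lowest adjusted p, for members and for all genes, was 0.634. At an unadjusted p under 0.05 there were 4 members higher in IELs (Fasl, Tnfsf10, Tnfsf13b and Tnfrsf1b) and 0 lower, against 4.89% and 0.985% of all genes tested.

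Counts by slide describe the family without a test. At least 2-fold higher on both slides were 3 of 29 members, where 2.13% of all genes were, and at least 2-fold lower on both slides were 0 members, where 0.314% of all genes were. On slide 1 alone, 6 members were at least 2-fold higher (11.6% of all genes) and 10 at least 2-fold lower (14.2%). On slide 2 alone, 3 members were at least 2-fold higher (3% of all genes) and 0 at least 2-fold lower (0.671%). Of the 6 high members on slide 1, 6 also had a positive difference on slide 2, and of the 10 low members 9 had a negative difference there. Among all genes tested, 1984 of the 2145 high ones were positive on slide 2, and 2224 of the 2615 low ones were negative. Such agreement between slides was thus common on the whole array. In 8 members both IEL samples lay above both SPL samples (24.6% of all genes), and in 8 both lay below (24.6%), so that both shares were near the background.

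Ligands and receptors lay on different sides of 0 in these counts. Of 8 tested ligands, 6 had a higher mean in IELs, with a median difference of 0.42 log2 units (0.81 on slide 1 and 0.17 on slide 2). In 5 ligands both IEL samples lay above both SPL samples, and in 0 both lay below. Of 21 tested receptors, 17 had a lower mean in IELs, with a median of -0.30 (-0.65 and -0.08). In 8 receptors both IEL samples lay below both SPL samples, and in 3 both lay above. Over all genes tested the median was -0.00195, with 9196 genes higher and 9282 lower, and 24.6% were without overlap in each direction. The difference between ligands and receptors was not tested. The median absolute difference of the 29 members was 1.16 log2 units on slide 1 and 0.25 on slide 2, against 0.51 and 0.17 for all genes. IEL replicate 1 was the lowest of the 4 arrays for 14 members and the highest for 12. The same counts over all genes are not given, so these are no result about the members. IEL replicate 2 lay nearer to SPL replicate 1 than to IEL replicate 1 in 25 of 29 members (86.2%), and in 77.8% of all genes.

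**Figure D2:**
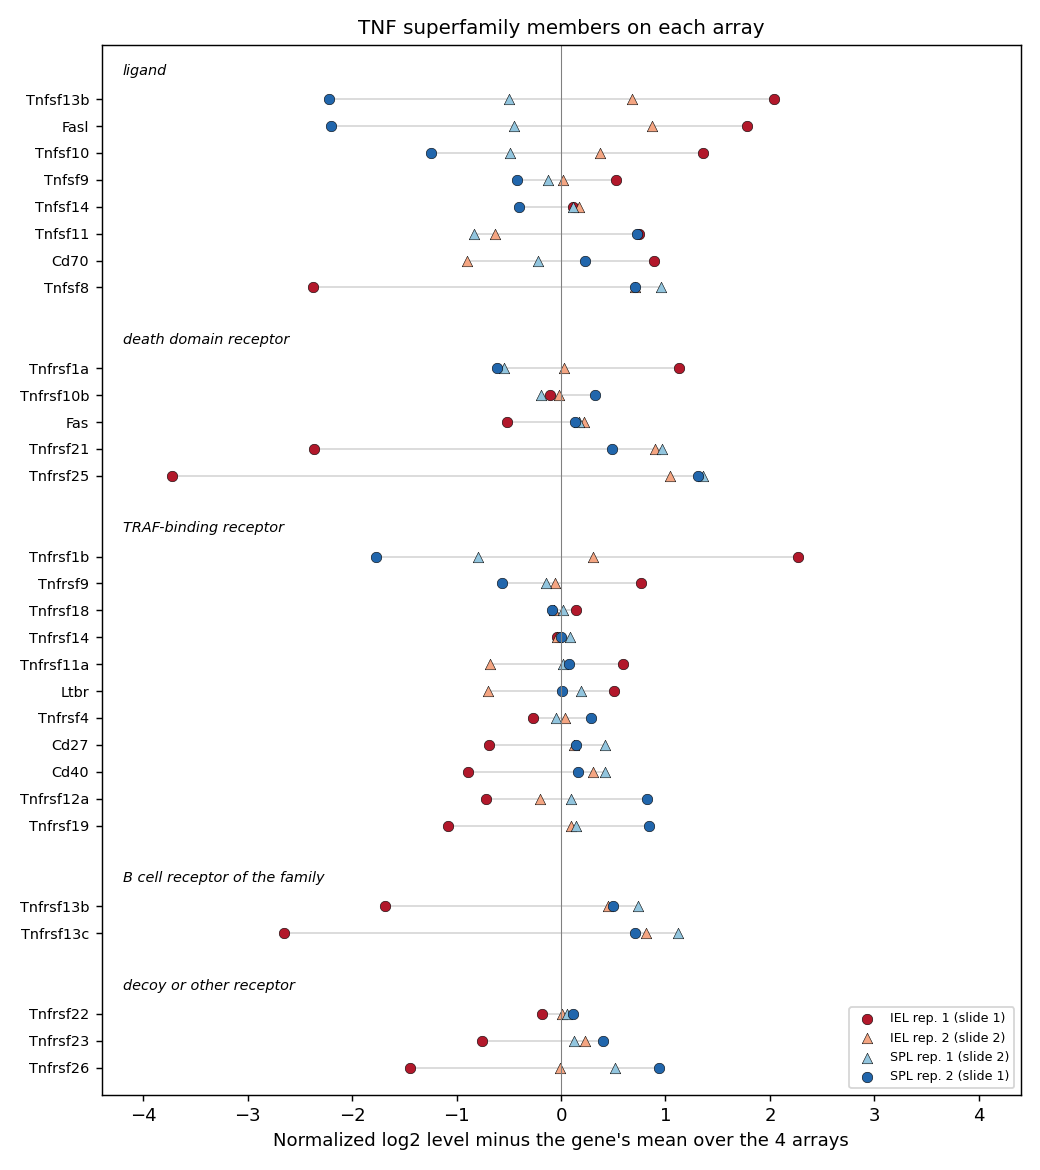
Normalized log2 level of the 29 tested members on each of the 4 arrays, minus the gene's own mean over the 4 arrays (horizontal axis, log2 units), by role; each row is the brightest tested probe of a gene and each point 1 array. The red circles of IEL replicate 1 stand apart in most rows, on the right for Fasl, Tnfsf13b, Tnfsf10 and Tnfrsf1b and on the left for Tnfrsf25, Tnfrsf13c and Tnfsf8. The orange triangle of IEL replicate 2 lies nearer to SPL replicate 1 than to IEL replicate 1 in 25 of 29 rows, but not for Fasl.

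**Figure D3:**
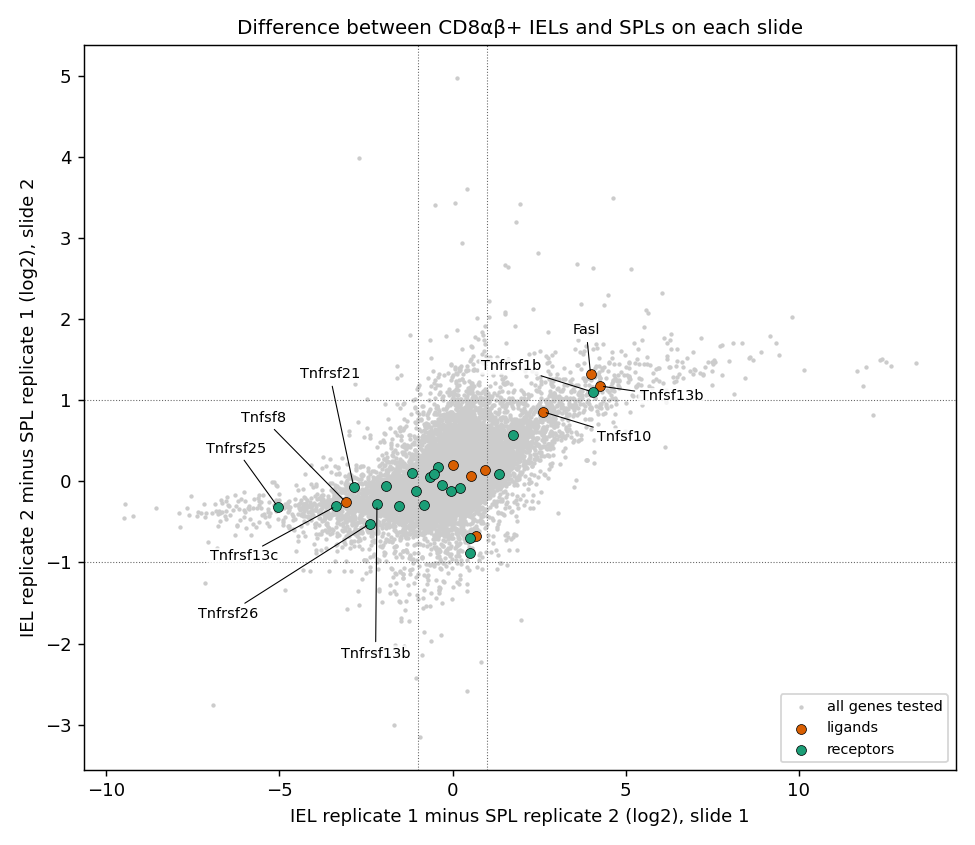
Difference between IEL and SPL on slide 1 (horizontal axis) against slide 2 (vertical axis), both in log2 units, for all 18478 genes tested (grey) and for the 29 family members (orange ligands, green receptors); dotted lines mark a 2-fold difference. Fasl, Tnfsf13b and Tnfrsf1b lie past the 2-fold lines of both slides, and no member lies past them in the low direction on both.

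Fasl, the Fas ligand with which cytotoxic T cells kill Fas-bearing targets, stood higher in IELs than in SPLs with both of its probes. The brighter probe, spotted 10 times on each array, stood at 3.82 and 2.92 in IEL replicates 1 and 2 and at 1.60 and -0.16 in SPL replicates 1 and 2. Both IEL samples were above both SPL samples, and the gap was 3.98 log2 units on slide 1 and 1.32 on slide 2. The fitted difference was 2.65 (SE 0.71), a 6.29-fold higher level, with an adjusted p of 0.634 in limma. The dimmer probe, A_52_P173985, stood at 2.36 and 1.27 in the IELs and at 0.02 and -2.10 in the SPLs, a difference of 2.86 (SE 0.84). This probe lies at chr1:163718079-163718138 (mm9), and it is shown because its letters hold no stop codon in 2 reading frames of the probe, whereas the brighter probe has 1 such frame. The promoter is shown beside it with its match to the kappaB letters in capitals (GGG and CC with any 5 bases between them, on either strand), which begins 193 bases before the annotated start (RefSeq, GRCm38.p6, chr1:161788446-161788745, minus strand).
Fasl probe A_52_P173985: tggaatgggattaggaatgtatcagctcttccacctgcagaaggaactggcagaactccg
Fasl promoter: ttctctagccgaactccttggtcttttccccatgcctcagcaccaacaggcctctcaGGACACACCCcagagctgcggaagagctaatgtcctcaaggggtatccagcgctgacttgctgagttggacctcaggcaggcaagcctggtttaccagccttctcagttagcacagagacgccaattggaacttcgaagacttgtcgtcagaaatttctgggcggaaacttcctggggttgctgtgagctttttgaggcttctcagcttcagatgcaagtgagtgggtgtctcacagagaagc

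Fas, the death receptor bound by Fas ligand, did not follow its ligand. It stood at 0.41 and 1.14 in the IELs and at 1.10 and 1.06 in the SPLs, so that only IEL replicate 1 was low. The difference was -0.30 (SE 0.33), and a second probe gave -0.02.

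Tnfsf10 encodes TRAIL, a ligand that triggers death through the receptor encoded by Tnfrsf10b. It stood at 0.73 and -0.25 in the IELs and at -1.11 and -1.87 in the SPLs, with both IEL samples above both SPL samples. The difference was 1.73 (SE 0.48), a 3.32-fold higher level, with an adjusted p of 0.634 in limma, and the 2 slides gave 2.61 and 0.86. Tnfrsf10b was measured by 3 probes with differences of -0.13, -0.08 and -0.45. Its brightest probe gave -0.43 on slide 1 and 0.17 on slide 2.

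Tnfsf13b encodes BAFF, a survival factor for B cells that myeloid and epithelial cells are known to make. Its brighter probe stood at -1.79 and -3.15 in the IELs and at -4.33 and -6.05 in the SPLs, a difference of 2.72 (SE 0.78; 4.26 on slide 1 and 1.18 on slide 2). Both IEL samples were above both SPL samples, but all 4 levels were dim, with intensities between 9.14 and 90.2 units. The second probe, which starts 1822 bases away, did not show this: it stood at -3.91 and -4.86 in the IELs and at -4.83 and -4.61 in the SPLs, a difference of 0.33 (SE 0.40). With normexp background correction the difference of Tnfsf13b was -0.53, the opposite direction. Over the same arrays the summed level of epithelial markers was highest in IEL replicate 1, while that of the macrophage and dendritic cell markers other than Itgax was lowest there. Their part in the level of Tnfsf13b was not tested. RefSeq gives 2 overlapping promoters, of which the downstream one (GRCm38.p6, chr8:10006383-10006682, plus strand) is shown because it holds both an AP-1 match (TGANTCA, beginning 127 bases before the start) and an ISRE match (GAAA followed by any 2 bases and GAAA, beginning 16 bases before it), in capitals.
Tnfsf13b promoter: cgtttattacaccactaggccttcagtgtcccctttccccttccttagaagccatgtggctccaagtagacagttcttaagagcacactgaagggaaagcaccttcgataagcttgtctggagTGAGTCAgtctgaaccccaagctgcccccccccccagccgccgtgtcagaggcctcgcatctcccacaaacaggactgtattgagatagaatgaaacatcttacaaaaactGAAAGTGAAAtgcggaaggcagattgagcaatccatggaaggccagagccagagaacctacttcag

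Its receptors belong to B cells and stood low in IEL replicate 1. Tnfrsf13c, which encodes the BAFF receptor, stood at -2.89 and 0.58 in the IELs and at 0.88 and 0.47 in the SPLs, so that IEL replicate 2 lay between the SPL samples. The difference was -1.83 (SE 1.20). The other B cell receptor of the family, Tnfrsf13b (TACI), named after its values were seen, gave -1.23 and -1.04 with its 2 probes, the second not well above background in IEL replicate 1, and Tnfrsf17 (BCMA) did not exceed background clearly on any of the 4 arrays. The B cell marker list moved with them: 0 of its 7 tested genes were higher in IELs, and its median difference was -3.58 on slide 1 and -0.42 on slide 2. Whether B cell RNA sets these levels was not tested.

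The CD30 ligand Tnfsf8 was the ligand with the lowest difference. It stood at -2.21 and 0.88 in the IELs and at 1.13 and 0.88 in the SPLs. IEL replicate 1 was low and IEL replicate 2 was level with SPL replicate 2, with a difference of -1.67 (SE 1.07), which was -3.09 on slide 1 and -0.25 on slide 2. Its receptor Tnfrsf8 (CD30) was well above background in IEL replicate 1 only and was not tested. It stood at -4.93 in IEL replicate 1 and at -5.93 in IEL replicate 2. Since the latter was not well above background, no bound on the fold between the groups follows.

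The death domain receptor Tnfrsf25 (DR3), which binds TL1A and costimulates T cells, had the lowest difference of all members. Its brighter probe stood at -2.55 in IEL replicate 1, against 2.22 in IEL replicate 2 and 2.54 and 2.49 in the SPLs. The 2 IEL samples were thus 4.77 log2 units apart, further than IEL replicate 2 was from either SPL sample. The difference was -2.68 (SE 1.63), with -5.04 on slide 1, -0.32 on slide 2 and an adjusted p of 0.634 in limma. The second probe, A_51_P178561, gave -4.87 and -3.70 in the IELs and -3.34 and -3.42 in the SPLs, a difference of -0.90 (SE 0.45). Both probes had both IEL samples below both SPL samples, with gaps of different size. The second probe is printed because its letters hold no stop codon in 2 frames (chr4:151490755-151490814, mm9), and it lies apart from the brighter probe at chr4:151494156-151494215. Tnfsf15, which encodes TL1A, was well above background in IEL replicate 2 only and was not tested.
Tnfrsf25 probe A_51_P178561: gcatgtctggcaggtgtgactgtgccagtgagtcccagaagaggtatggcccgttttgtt

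Tnfrsf1b encodes TNF receptor 2, a TRAF-binding receptor for membrane TNF, and had the highest difference among the receptors. The brighter probe, spotted 10 times, stood at 4.61 and 2.65 in the IELs and at 1.54 and 0.56 in the SPLs. Both IEL samples were above both SPL samples. The difference was 2.57 (SE 0.78), a 5.95-fold higher level, with 4.04 on slide 1, 1.10 on slide 2 and an adjusted p of 0.634 in limma. The second probe, A_51_P278282, kept the same order of the samples, with 0.69 and -0.46 in the IELs and -1.05 and -1.39 in the SPLs. This probe had a smaller difference of 1.34 (SE 0.46), with 2.07 on slide 1 and 0.60 on slide 2. Its annotated positions, from 144812866 to 144813439 on chromosome 4 (mm9), span more than its 60 bases. The promoter (GRCm38.p6, chr4:145246821-145247120, minus strand) holds 3 overlapping kappaB matches in 1 run and an ISRE match that begins 10 bases before the start, all in capitals. Among all 32851 promoters of the same length, 50.8% hold the kappaB letters, 7.81% the AP-1 letters and 3.44% the ISRE letters on either strand, and a match is a description of the letters only.
Tnfrsf1b probe A_51_P278282: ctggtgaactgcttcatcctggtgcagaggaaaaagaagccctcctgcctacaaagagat
Tnfrsf1b promoter: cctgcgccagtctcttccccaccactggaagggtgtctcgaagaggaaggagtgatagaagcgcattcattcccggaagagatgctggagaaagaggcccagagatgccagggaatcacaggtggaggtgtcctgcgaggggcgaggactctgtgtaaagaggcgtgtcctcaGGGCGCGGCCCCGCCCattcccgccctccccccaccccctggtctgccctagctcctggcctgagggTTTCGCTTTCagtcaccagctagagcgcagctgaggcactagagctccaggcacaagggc

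Its sister receptor Tnfrsf1a, the death domain receptor for soluble TNF that most cell types carry, was looked at after its values were seen. It stood at 4.08 and 2.97 in the IELs and at 2.40 and 2.34 in the SPLs, a difference of 1.15 (SE 0.44). The IEL samples were again both above the SPL samples, with 1.74 on slide 1 and 0.57 on slide 2. The ligand itself, Tnf, stood at 0.25 and 0.07 in the IELs and at 0.19 and -0.37 in the SPLs. These values overlapped, with a difference of 0.25 (SE 0.30).

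The costimulatory receptors of T cells divided into those with level values and those that were low in IEL replicate 1. Tnfrsf18 (GITR) stood at 4.04 and 3.84 in the IELs and at 3.92 and 3.81 in the SPLs, a difference of 0.07 (SE 0.24). Tnfrsf14 (HVEM) stood at -0.65 in both IEL samples and at -0.53 and -0.62 in the SPLs, a difference of -0.08 (SE 0.22). Tnfrsf4 (OX40) stood at 1.36 and 1.66 in the IELs and at 1.57 and 1.91 in the SPLs, a difference of -0.23 (SE 0.27). For these 3 receptors the 4 samples lay within 0.55 log2 units of each other, and the adjusted p in limma was between 0.740 and 0.907. Cd27, a receptor that supports T cell survival, stood at 1.45 and 2.26 in the IELs and at 2.55 and 2.28 in the SPLs. IEL replicate 1 was low and IEL replicate 2 was next to SPL replicate 2, with a difference of -0.56 (SE 0.37).

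Ligands of these receptors were mostly dim. Tnfsf14 (LIGHT), which binds HVEM, stood at 0.39 and 0.45 in the IELs and at 0.38 and -0.13 in the SPLs, a difference of 0.29 (SE 0.28). SPL replicate 1 was level with the IELs. Cd70, which binds CD27, was well above background on 3 arrays and had a difference of -0.01 (SE 0.66), with 0.66 on slide 1 and -0.67 on slide 2. Tnfsf18, which binds GITR, was not clearly above background in any sample. The OX40 ligand Tnfsf4 was well above background in IEL replicate 1 only, where it stood at -4.83, against -6.18 in IEL replicate 2 and -7.66 and -8.52 in the SPLs. It was not tested, and since IEL replicate 2 was itself not well above background, no bound on the fold between the groups follows.

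Tnfrsf9 encodes 4-1BB, an activation-induced costimulatory receptor, and its 3 probes gave different sizes. The brightest probe stood at -0.81 and -1.63 in the IELs and at -1.72 and -2.14 in the SPLs, a difference of 0.71 (SE 0.38), which was 1.33 for slide 1 and 0.09 for slide 2. The next probe gave 0.37 (SE 0.38). The dimmest probe, A_51_P137836, singled out after its values were seen, stood at -5.00 and -5.60 in the IELs and at -7.85 and -7.35 in the SPLs, where it was not well above background. It was at least 2.03-fold higher in IELs, with an adjusted p of 0.634 in limma. The size of its gap beyond that bound, on either slide, was not measured. Its last 40 bases are the first 40 of the promoter of the second annotated start of Tnfrsf9 (GRCm38.p6, chr4:150927749-150928048, plus strand), in capitals. They lie 250 to 211 bases before that start, and the first annotated start has its own promoter at chr4:150919905-150920204. The same window holds kappaB and AP-1 letters nearer to the start, in lower case here.
Tnfrsf9 promoter of the second start: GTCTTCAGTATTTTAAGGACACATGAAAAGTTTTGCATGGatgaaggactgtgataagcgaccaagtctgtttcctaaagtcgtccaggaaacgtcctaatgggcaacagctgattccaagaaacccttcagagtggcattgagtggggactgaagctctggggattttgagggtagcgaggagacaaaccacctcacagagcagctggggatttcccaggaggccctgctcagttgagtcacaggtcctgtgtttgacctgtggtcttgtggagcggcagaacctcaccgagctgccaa

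Its ligand Tnfsf9 (4-1BBL) stood at -3.16 and -3.68 in the IELs and at -3.82 and -4.11 in the SPLs, a difference of 0.55 (SE 0.30; 0.95 on slide 1 and 0.14 on slide 2). The IEL samples were both above the SPL samples by little on slide 2. With normexp background correction Tnfrsf9 and Tnfsf9 had differences of -0.34 and -0.75, the opposite direction.

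**Figure D4:**
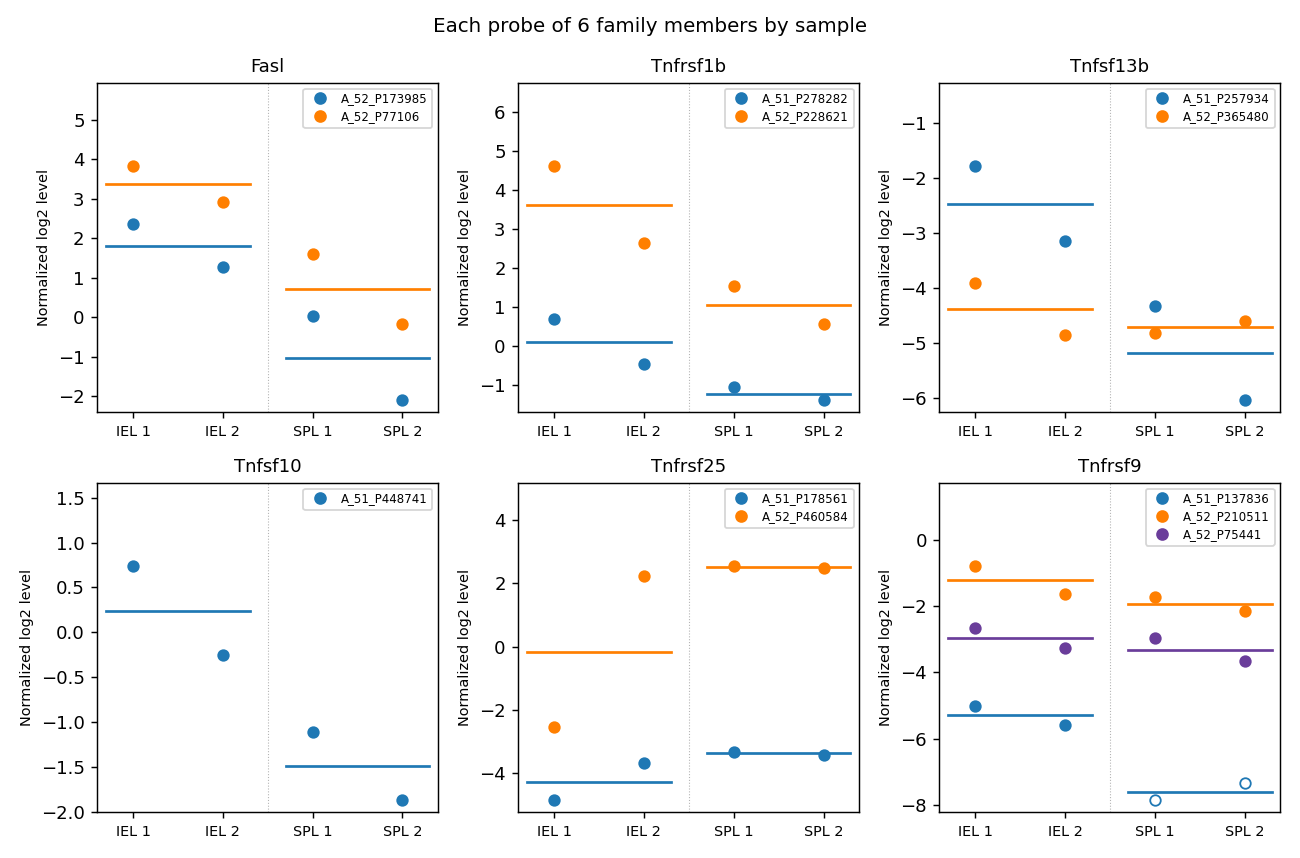
Normalized log2 level (vertical axis, 0 is the array's 75th percentile) of every probe of Fasl, Tnfrsf1b, Tnfsf13b, Tnfsf10, Tnfrsf25 and Tnfrsf9 in the 4 samples; each point is 1 array, lines are the means of a group's 2 arrays, colours are probes, and open points were not well above background. Both probes of Fasl and of Tnfrsf1b are higher in both IEL samples, 1 of the 2 Tnfsf13b probes is, and the low mean of the brighter Tnfrsf25 probe in IELs comes from IEL replicate 1.

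Other pairs had values that overlapped or hung on 1 sample. Cd40, the receptor by which B cells and antigen-presenting cells receive T cell help, stood at -3.96 and -2.76 in the IELs and at -2.65 and -2.90 in the SPLs, a difference of -0.58 (SE 0.47), and its ligand gene Cd40lg was not clearly above background in any sample. Tnfsf11 (RANKL) stood at -2.63 and -4.01 in the IELs and at -4.21 and -2.64 in the SPLs, a difference of 0.11 (SE 0.74). Its receptor Tnfrsf11a (RANK) had a difference of -0.09 (SE 0.49), with 0.51 on slide 1 and -0.70 on slide 2. Neither of the last pair separated the groups.

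The remaining receptors were mostly lower in IEL replicate 1. Tnfrsf21 (DR6) stood at -6.42 there, where it was not well above background, and at -3.15, -3.09 and -3.56 in IEL replicate 2 and SPL replicates 1 and 2, for a fitted difference of -1.46 (SE 1.14), which is no exact size since IEL replicate 1 was below the limit. A second tested probe of Tnfrsf21 gave -0.49 (SE 0.57) and was also not well above background in IEL replicate 1. Tnfrsf26, listed among decoy and other receptors, stood at -0.58 and 0.86 in the IELs and at 1.38 and 1.81 in the SPLs. Both IEL samples lay below both SPL samples, with a difference of -1.45 (SE 0.55). Tnfrsf12a, which encodes the TWEAK receptor, had a difference of -0.92 (SE 0.38), with -1.54 on slide 1 and -0.30 on slide 2. These genes are named after their values were seen. The lymphotoxin β receptor Ltbr had a difference of -0.19 (SE 0.47), with 0.50 on slide 1 and -0.89 on slide 2. Tnfrsf22 had -0.18 (-0.30 and -0.05 on slides 1 and 2). For Tnfrsf23 the difference was -0.53 (-1.16 and 0.10), and IEL replicate 1 was not well above background. Tnfrsf19 had -0.99 (-1.93 and -0.05) and was not well above background in the IELs. Its level in SPL replicate 1, -6.03, lay below the lowest level well above background in IEL replicate 2 (-5.87). No bound on its fold is therefore given. Tnfsf12, which encodes TWEAK, was not clearly above background in any sample, and Tnfrsf11b, the soluble decoy osteoprotegerin, was so on 1 array of each group and was not tested.

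Leaving out IEL replicate 2 changed which members passed. With IEL replicate 1 alone against both SPL samples, where the lone sample is assumed to vary like the SPL samples, 6 members were higher and 7 lower at an adjusted p of 0.05 in limma, among 31 tested, against 8.93% and 10.8% of all genes. The higher members were Tnfrsf1a, Tnfrsf1b, Tnfrsf8, Tnfsf4, Tnfsf10 and Tnfsf13b, and the lower ones Cd40, Tnfrsf13b, Tnfrsf13c, Tnfrsf21, Tnfrsf25, Tnfrsf26 and Tnfsf8. Of these, Tnfrsf8 and Tnfsf4 were well above background in IEL replicate 1 only. They entered this fit through that array alone, so the filter set their direction and they are no result. In this fit the adjusted p was 0.0156 for Tnfrsf1b, 0.0273 for Tnfsf10, 0.00393 for Tnfrsf25 and 0.0558 for Fasl. In the other alternatives the adjusted p of these 4 genes was between 0.169 and 1.

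Signalling genes outside the naming rule gave few differences of this size. Of 42 pathway genes 39 were tested, 22 with a higher and 17 with a lower mean in IELs. Their median was 0.14 log2 units, with 0.19 on slide 1 and -0.016 on slide 2. In either direction 0 passed the adjusted p in limma (0% of all genes). At an unadjusted p under 0.05 in limma 2 were higher and 0 lower, against 4.89% and 0.985% of all genes tested. Cd160, which encodes a receptor of IELs and NK cells that binds HVEM, was the pathway gene at least 2-fold higher on both slides. It stood at 2.64 and 1.44 in the IELs and at 0.27 and -1.41 in the SPLs, a difference of 2.61 (SE 0.74). Btla, the other HVEM partner, stood at -2.94 and -0.46 in the IELs and at 0.06 and 0.31 in the SPLs, a difference of -1.89 (SE 0.87). Slides 1 and 2 gave 4.06 and 1.16 for Cd160 and -3.25 and -0.52 for Btla, each gene with an adjusted p of 0.634 in limma. The 2 HVEM partners thus lay on opposite sides, while Tnfrsf14 itself was level. Both partners were without overlap between the groups, as were 24.6% of all genes in each direction.

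The lymphotoxins were low in IEL replicate 1. Lta stood at -2.24 and -0.17 in the IELs and at 0.17 and 0.02 in the SPLs, a difference of -1.30 (SE 0.74), and Ltb at 5.11 and 6.85 against 7.16 and 7.06, a difference of -1.13 (SE 0.63). Among the adaptors and death signalling genes 2 of 8 had a higher mean in IELs, among TRAFs and their partners 7 of 10, and among NF-kappaB genes 10 of 14. The medians of these groups were -0.15, 0.29 and 0.19 log2 units. They were -0.16, 0.42 and 0.35 on slide 1 but -0.088, 0.034 and -0.025 on slide 2.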

How the data were processed

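RNA of 2 samples each of CD8αβ+ IELs and CD8αβ+ SPLs was hybridised to 4 Agilent 1-colour arrays. The deposited scanner files give intensity per spot, background-subtracted within the array by Feature Extraction (10.7.3.1 per the file headers, 10.7.1.1 in the submitters' processing notes) with no scaling from array to array. A table of log2 values by the authors served as an alternative. The paper's methods name PrimeView chips, which the scanner files do not match.

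From the log2 processed intensity, the array's own 75th percentile over 43379 spots other than controls was subtracted (312 and 435 units for the IELs, 479 and 605 for the SPLs, replicates 1 and 2). Between 98 and 179 spots per array with an outlier mark were left out, 0 spots were saturated, and spots of a probe were averaged. Between 63.6% and 69.6% of probes were well above background. A gene is represented by its brightest tested probe. The test was that of limma (3.58.1, under R 4.3.3, with files read by data.table version 1.17.8), without a block, with two-sided tests and Benjamini-Hochberg adjustment over all tested probes at 0.05. The number of arrays limits the precision. Where a probe was below background in a group and well above it on both arrays of the other, the fold is a lower bound. It sets the brighter group's mean against a floor. On each array the floor is the higher of the probe's own level and the lowest level among probes well above background. An exact permutation test of 2 against 2 samples cannot go below p = 0.333. The replicate numbers gave no pairing, as samples that share a number deviated from their groups with a correlation of -0.025 across probes.

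Genes named are members at least 2-fold apart on both slides and fixed ligand and receptor pairs, others being named as chosen after their values were seen. Members, lists and rules were chosen with earlier results of these data known. Probe positions are those of the arrays' annotation, taken as mm9, since the headers name no build. Promoters are RefSeq windows of GRCm38.p6 from 250 bases before to 50 after a start, and 27 of 37 members matched. The limma step was tested on simulated data. Alternatives were other scalings, normexp background correction with an offset of 50 (with and without spots over 20 units below their local background), the authors' values, other filters and flags, blocks by replicate or slide, an intensity trend, the methods' t-test, averaging over all probes of a gene, and each sample left out.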

Additional observations from a re-analysis of the deposited data

How the results depend on the processing

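No member passed the adjusted p of 0.05 in any alternative other than leaving out IEL replicate 2. With 2 samples a group and IEL replicate 2 close to the spleen samples, these arrays resolve few differences, and signal over background limits the dim genes. With the replicate number as a block, which the data do not bear out as a pairing, 0 members were called in limma. At an unadjusted p under 0.05 there were 5 of 29 members higher and 3 lower. Of all 18478 genes tested, 1037 were higher and 429 lower at that threshold. The smallest adjusted p of any gene in this limma fit was 0.138. The methods' t-test gave 0 members at an unadjusted p under 0.05, with 336 genes higher and 201 lower in all and 0 after Benjamini-Hochberg adjustment.

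Leaving out each sample in turn gave 0 to 6 members called higher and 0 to 7 lower, 0 to 1684 and 0 to 2028 of all genes, and 0 to 3 and 0 to 4 pathway genes, with the upper values without IEL replicate 2. Members not overlapping numbered 9 to 15 (higher) and 11 to 15 (lower), and the median ran from -0.33 to -0.08. A group left with a lone sample separates more easily, so these counts cannot be set beside those from all samples. With a sample left out, counts on both slides have no value. Members not overlapping in the lower direction were 13 when scaled by the median, 5 when the percentile was taken over probes detected on every array and 5 with normexp. For the non-overlap counts of these alternatives no share over all genes is given, so they are no result about the members. The median of the members was -0.58 with normexp and 0.021 with normexp without the spots below background, where the median of all genes moved to -0.31 and 0.14 (and to 0.15 without a filter), so differences there are relative to those shifts. With the mean of a gene's probes, the count of members at least 2-fold higher on both slides was 1. For this count too no share over all genes is given, so it is no result about the members.

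Directions turned for Tnfrsf18 under quantile normalization (-0.0011), for Tnfrsf4 (0.050), Tnfrsf9 (-0.34), Tnfsf11 (-0.88), Tnfsf13b (-0.53) and Tnfsf9 (-0.75) under normexp, and for Cd70 (0.38), Ltbr (0.21), Tnfrsf10b (0.0047), Tnfrsf11a (0.30), Tnfrsf18 (-0.0031), Tnfrsf19 (0.29), Tnfrsf21 (0.021) and Tnfrsf23 (0.33) under normexp without those spots. With each sample left out, values spanned 0 for Cd40 (-1.18 to 0.015), Fas (-0.67 to 0.066), Tnfrsf18 (-0.027 to 0.18), Tnfrsf21 (-3.09 to 0.17), Tnfsf11 (-0.67 to 0.89), Cd70 (-0.90 to 0.89), Ltbr (-0.79 to 0.41), Tnfrsf11a (-0.73 to 0.54), Tnfrsf10b (-0.39 to 0.13) and Tnf (-0.031 to 0.53). The cause was not tested.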
